A study of Mus musculus with 10 samples.

Results

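The genes described here act in the lysosome or in its control. They are 39 of the 53465 genes in the deposited table: 22 encode hydrolases and their cofactors, 10 encode parts of the V-ATPase (the lysosomal proton pump), 4 encode lysosomal membrane proteins and 3 encode regulators. They were chosen by name and used if they reached at least 1 CPM (counts scaled to a common library size by the TMM method) in at least 5 libraries, which all 39 did. The lowest count of any of them in any library was 701, for Arsb.

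RNA was sequenced in bulk from cultured peritoneal macrophages, in 5 libraries of Mac-GsαKO mice (KO) and 5 libraries of control mice (CTR). By their name, Mac-GsαKO mice have no Gsα in their macrophages. The gene of Gsα is Gnas, and its product is the G protein subunit by which many receptors activate adenylyl cyclase and so raise cAMP. All mice were 6 to 8 weeks old, and both genotypes were grown in DMEM with serum and antibiotics and with no agent added. How Gsα was deleted, the promoter that restricts the deletion, the genotype of the controls, the strain and the sex were not stated in the sources used here. Nor was it stated whether libraries are from separate mice, so that SDs and p-values reflect only how these libraries varied, which may be technical.

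Lysosomes digest material that a cell takes up or turns over, and macrophages, which engulf debris, microbes and lipoproteins, are rich in them. Their hydrolases work in an acidic lumen. The V-ATPase makes it acidic: its cytosolic V1 sector hydrolyses ATP and turns a rotor, which drives protons through the V0 sector in the membrane. The transcription factors TFEB and TFE3 switch on many lysosomal genes through an E-box, CACGTG, in their promoters, and are held in the cytosol while nutrients are plentiful. Comparing KO with CTR asks how loss of Gsα bears on transcripts of macrophages.

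Totals ranged from 16877249 to 19235777 counts per KO library and from 15664243 to 18028974 per CTR library. A count of 0 allows up to 3 counts by counting error alone, which came to 0.156 to 0.192 CPM. Gnas had 43.5, 37.0, 39.6, 42.3 and 38.8 CPM in KO libraries 1 to 5, against 487, 359, 459, 491 and 378 CPM in CTR libraries 1 to 5, a difference of -3.42 in mean log2 CPM (two-sided exact permutation p = 0.00794, the smallest that this design can give, n = 5 each). A gene-level count of Gnas includes exons outside any deleted part. On the first principal component all KO libraries lay at -28.7 to -11.6 and all CTR libraries above 0, with CTR 4 and CTR 5 farthest out, both at 34.7. On the second, CTR 4 was at 46.7 and CTR 5 at -9.46, so the 2 did not lie together. The calls named among the lysosomal genes and the rest of the pathway are also given without CTR 4 and CTR 5. Mitochondrially encoded genes held 1.20 to 1.36% of counts in KO and 1.39 to 1.97% in CTR, and the part of this difference in the results was not tested. The cell label was checked with 8 macrophage markers, all of which were tested: Csf1r and Itgam rose, Lyz2 fell, and their summed level was 14620 to 16142 CPM in KO and 30042 to 38429 CPM in CTR. Without Lyz2, the other 7 summed to 5503 to 6422 CPM in KO and 5135 to 5731 CPM in CTR. The 9 lists of markers of other cell types summed to at most 145 CPM in any KO library (neutrophil markers) and 137 CPM in any CTR library (fibroblast markers), with Ngp at 0 in all 10 libraries.

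Of the 39 lysosomal genes, 4 passed the test. In edgeR's quasi-likelihood test, with Benjamini-Hochberg adjustment over 13203 genes, 1 of the 39 rose in KO (Man2b1) and 3 fell (Atp6v0d1, Atp6v1d and Atp6ap1) at an adjusted p under 0.05. Among all genes tested, 1.83% rose and 2.11% fell. The median log2 fold change of the 39, KO over CTR, was -0.10 and that of all genes tested was -0.01, with 10 of the 39 above 0 and 29 below. At an unadjusted p under 0.05, 2 of the 39 were higher and 11 lower, where 10.0% and 11.9% of all genes tested were. All 5 KO libraries lay above all 5 CTR libraries for 1 of the 39, as for 3.25% of all genes tested, and below them for 7, as for 4.55%. The 4 calls were in the proton pump and in a glycosidase, and none was in the cathepsins. In bulk RNA, fewer cells of a type and less RNA per cell cannot be told apart.

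**Figure D1:**
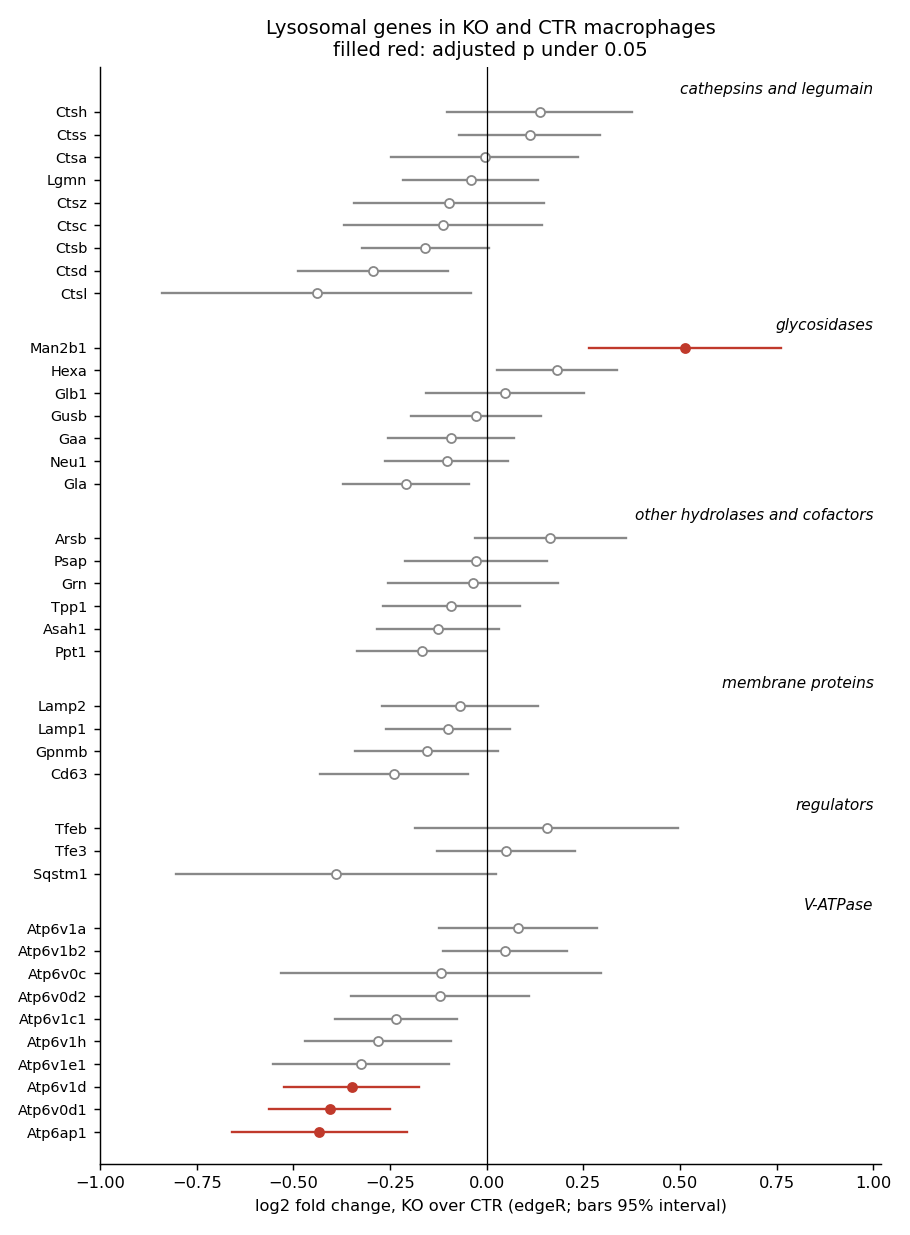
Log2 fold change of each of the 39 lysosomal genes, KO over CTR, from edgeR (x axis), with genes grouped by role down the page; bars are 95% intervals and filled red points have an adjusted p under 0.05. Man2b1 stands to the right at 0.51, and Atp6v1d, Atp6v0d1 and Atp6ap1 stand to the left at -0.35, -0.41 and -0.43.

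The proton pump held the 3 falls. Of its 10 genes 3 fell and none rose, 8 had a log2 fold change below 0, and the median was -0.26. At an unadjusted p under 0.05, 6 of the 10 were lower and none higher, and for 5 of the 10 all KO libraries lay below all CTR libraries. Over all genes tested, 1.83% rose and 2.11% fell, and 10.0% were higher and 11.9% lower at that unadjusted p. All KO libraries lay above all CTR libraries for 3.25% of the genes tested and below them for 4.55%. The genes that fell encode the d1 subunit of V0, the D subunit of V1 and an accessory subunit, while those of the catalytic A subunit and its partner B did not pass the test.

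Atp6v0d1 (ENSMUSG00000013160) encodes the d1 subunit, which sits on the V0 ring where the rotor of V1 docks. It had 321, 300.2, 333, 309.6 and 319 CPM in KO libraries 1 to 5, against 391, 418, 434, 452 and 403 CPM in CTR libraries 1 to 5. Every KO library was below every CTR library, and the fall was 1.32-fold, at a log2 fold change of -0.41 and an SE of 0.07 (adjusted p = 0.0150). Its promoter is shown as that of a called gene, and it carries a CACGTG, in capitals, across the start. The stretch of 120 bases runs 5′ to 3′ from 100 bases before the start to 20 after it, chr8:105566045-105566164 (- strand) in GRCm38.p6 (RefSeq).
Atp6v0d1: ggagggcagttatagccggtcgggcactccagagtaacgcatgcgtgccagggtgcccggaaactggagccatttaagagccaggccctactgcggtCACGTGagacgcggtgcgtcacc

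Atp6v1d (ENSMUSG00000021114) encodes the D subunit, the central stalk of the rotor that meets the d subunit. It had 135, 140.1, 142, 133 and 132 CPM in KO libraries 1 to 5, against 161, 159.7, 168, 196 and 183 CPM in CTR libraries 1 to 5. The groups did not overlap, and Atp6v1d was 1.27-fold lower in KO, at a log2 fold change of -0.35 and an SE of 0.08 (adjusted p = 0.0351). Atp6ap1 (ENSMUSG00000019087), which encodes the accessory subunit Ac45 that helps the pump assemble, had 335, 326, 359, 325 and 338 CPM in KO libraries 1 to 5, against 468, 381, 559, 396 and 469 CPM in CTR libraries 1 to 5. Its KO libraries lay close together and its CTR libraries spread widely, with CTR 2 nearest to KO, and it was 1.35-fold lower in KO, at a log2 fold change of -0.43 and an SE of 0.10 (adjusted p = 0.0406). Their promoter stretches are also shown as those of called genes, and neither holds a CACGTG in the window of 300 bases searched. Atp6v1d is at chr12:78861619-78861738 (- strand) and Atp6ap1 at chrX:74296997-74297116 (+ strand), both in GRCm38.p6 (RefSeq).
Atp6v1d: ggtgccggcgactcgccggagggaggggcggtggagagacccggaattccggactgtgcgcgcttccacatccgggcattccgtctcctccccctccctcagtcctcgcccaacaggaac
Atp6ap1: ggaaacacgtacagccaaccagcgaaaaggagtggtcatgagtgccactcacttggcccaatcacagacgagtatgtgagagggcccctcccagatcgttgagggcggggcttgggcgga

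These calls stood close to the threshold. Leaving out KO 2 and CTR 3 in turn lost the call of Atp6v0d1 (adjusted p 0.0579 and 0.0516). Over all genes tested, 62 were called without KO 2 and 121 without CTR 3, against 520 with all libraries. Leaving out KO 1, KO 2, KO 3, KO 4, KO 5, CTR 3 and CTR 5 in turn lost that of Atp6v1d (log2 fold change -0.36 to -0.33, adjusted p 0.0575 to 0.0937), and leaving out KO 1, KO 2, KO 3, KO 4, KO 5, CTR 1, CTR 3 and CTR 5 in turn lost that of Atp6ap1 (log2 fold change -0.46 to -0.35, adjusted p 0.0618 to 0.113). All 3 were called without CTR 4 and CTR 5 together, with a log2 fold change of -0.39 (adjusted p = 0.00891) for Atp6v0d1, -0.26 (adjusted p = 0.0311) for Atp6v1d and -0.48 (adjusted p = 0.0279) for Atp6ap1.

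None of the other genes of V1 among the 10 passed the test. The C, H and E subunits connect V1 to V0 or hold it in place, and their genes had negative estimates without passing the test. Errors are SDs over the 5 libraries of each group. Atp6v1c1 (C, released when the pump comes apart) averaged 463 ± 28.7 CPM in KO and 546 ± 20.9 CPM in CTR, and all its KO libraries were below all its CTR libraries (log2 fold change -0.24, SE 0.07, adjusted p = 0.0876). Atp6v1h (H, which silences V1 when it is free) averaged 162 ± 16.0 CPM in KO and 197 ± 11.9 CPM in CTR (log2 fold change -0.28, SE 0.09, adjusted p = 0.0879). Atp6v1e1 (E, of the outer stalks) averaged 435 ± 17.5 CPM in KO and 545 ± 89.5 CPM in CTR, with KO 5 at 463 CPM just under CTR 5 at 464 CPM (log2 fold change -0.32, SE 0.11, adjusted p = 0.0986). Atp6v1g1 and Atp6v1g2, which encode forms of the outer stalk's G subunit and are not among the 10, averaged 235 ± 27.3 CPM in KO and 289 ± 47.0 CPM in CTR (log2 fold change -0.29, SE 0.12, adjusted p = 0.177) and 1.94 ± 0.926 CPM in KO and 1.06 ± 0.275 CPM in CTR (log2 fold change 0.87, SE 0.35, adjusted p = 0.166). Atp6v1a, the catalytic A subunit, averaged 915 ± 44.6 CPM in KO and 865 ± 108 CPM in CTR, and its log2 fold change of 0.08 had a 95% interval of -0.12 to 0.29. Atp6v1b2, the B subunit that alternates with A, averaged 1342 ± 76.7 CPM in KO and 1299 ± 61.8 CPM in CTR, with a log2 fold change of 0.05 (95% interval -0.11 to 0.21). The intervals of A and B lie above the estimates for d1, D and Ac45, but a difference between subunits was not tested.

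Other tests called more of the pump. The DESeq2 Wald test called Atp6v1c1, Atp6v1e1 and Atp6v1h lower beside the 3 genes above, 6 of 10, and over all genes tested it called 4.54% higher and 5.23% lower. The limma voom test called the same 6 of 10, with 7.77% of all genes tested higher and 6.76% lower. Without CTR 4 and CTR 5, edgeR called 5 of 10 lower, the first 3 with Atp6v1c1 and Atp6v1e1, while 5.13% of all genes tested were higher and 3.63% lower.

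The d subunit has 2 forms, and macrophages express both. Atp6v0d2 (ENSMUSG00000028238), the form prominent in osteoclasts and macrophages, had 1080.3, 1220.0, 1199.9, 1166 and 1176 CPM in KO libraries 1 to 5, against 1509, 1238, 1435, 1145 and 1025 CPM in CTR libraries 1 to 5. CTR 1, CTR 2 and CTR 3 lay above all KO libraries and CTR 5 lay below them, and the log2 fold change was -0.12 (SE 0.11, adjusted p = 0.544). Per length, d2 exceeded d1 in every library: the ratio of their FPKM was 2.61, 3.16, 2.80, 2.92 and 2.86 in KO libraries 1 to 5, against 2.999, 2.30, 2.57, 1.97 and 1.98 in CTR libraries 1 to 5. The ratio averaged 2.87 ± 0.198 in KO and 2.36 ± 0.434 in CTR (SD, n = 5 each), and its log2 differed by 0.30 (two-sided exact permutation p = 0.0635, the smallest possible being 0.00794). CTR 1 was the CTR library with the highest ratio. The log2 difference was 0.39 without it, but CTR 1 was picked by the ratio under test, so no p-value is given. Without CTR 4 and CTR 5 the log2 difference was 0.14 (exact permutation p = 0.250).

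Atp6v0c encodes the proteolipid that forms the rotating ring of V0. It lay at 1140.0, 748, 1160.1, 748 and 1157 CPM in KO libraries 1 to 5, against 811, 1334, 814, 1037 and 1381 CPM in CTR libraries 1 to 5. In KO its libraries formed a lower and a higher set, while in CTR they spread widely with CTR 4 in the middle. KO 2, KO 4, CTR 1 and CTR 3 were the 4 lowest of the 10 libraries, and the log2 fold change of Atp6v0c was -0.12 (95% interval -0.53 to 0.30).

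**Figure D2:**
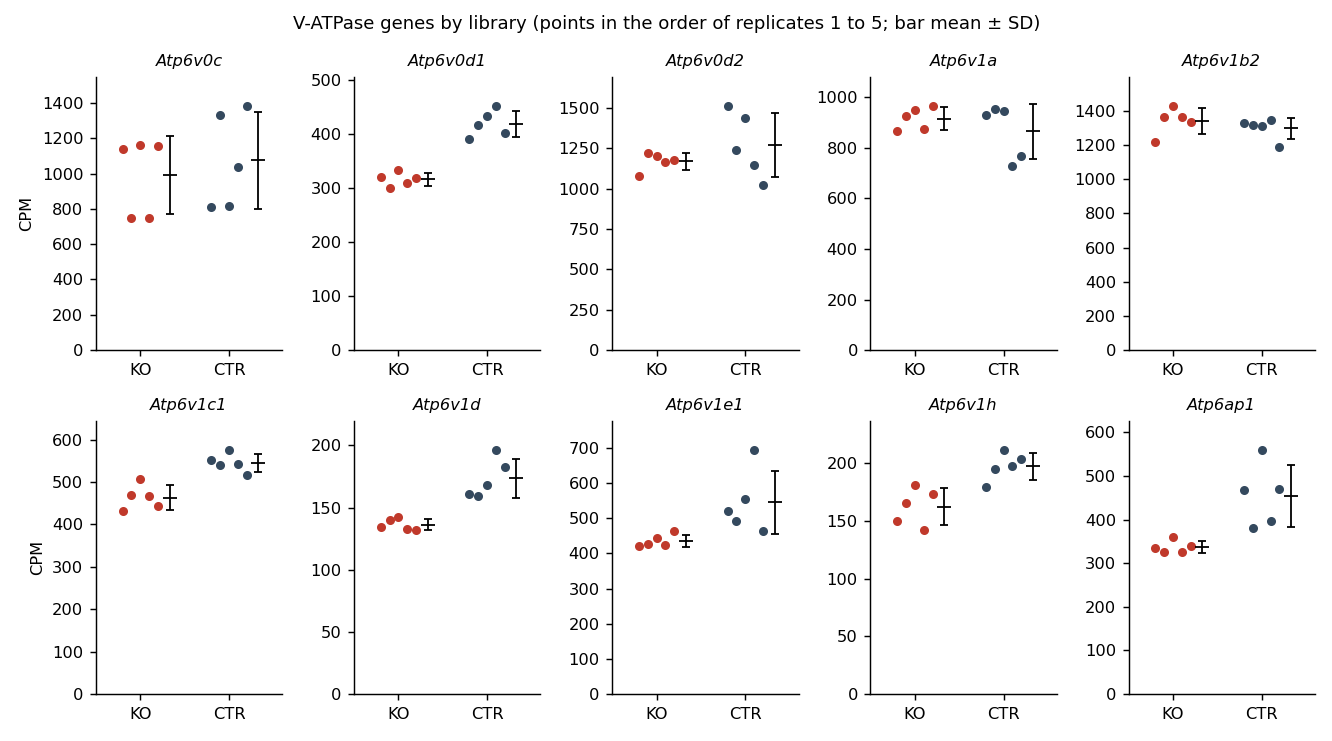
Level of the 10 V-ATPase genes in CPM (y axis from 0) in each KO library (red, left) and CTR library (blue, right), in the order of replicates 1 to 5, with mean ± SD. Atp6v0d1, Atp6v1d, Atp6ap1, Atp6v1c1 and Atp6v1e1 have every KO point below every CTR point, Atp6v1a and Atp6v1b2 overlap, and Atp6v0c splits within KO and spreads widely in CTR.

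Of the 22 hydrolase and cofactor genes, 1 rose and none fell, and their median log2 fold change was -0.07. At an unadjusted p under 0.05, 2 were higher and 4 lower. Among all genes tested 1.83% rose and 2.11% fell, and 10.0% were higher and 11.9% lower at that unadjusted p. The rise was in the 7 glycosidases, which strip sugars from glycoproteins, glycolipids and glycogen, and whose median was -0.03.

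Man2b1 (ENSMUSG00000005142) encodes lysosomal alpha-mannosidase, which trims mannose from glycoproteins and is lost in human alpha-mannosidosis. It had 1403, 1418, 1192, 1432 and 1220.3 CPM in KO libraries 1 to 5, against 1078, 919.7, 839, 1086 and 749 CPM in CTR libraries 1 to 5. The lowest KO library was above the highest CTR library, and Man2b1 was 1.43-fold higher in KO, at a log2 fold change of 0.51 and an SE of 0.11 (adjusted p = 0.0322). The promoter stretch, chr8:85083169-85083288 (+ strand) in GRCm38.p6 (RefSeq), is shown because Man2b1 was the 1 gene of the 39 that rose in this test, and its window holds no CACGTG.
Man2b1: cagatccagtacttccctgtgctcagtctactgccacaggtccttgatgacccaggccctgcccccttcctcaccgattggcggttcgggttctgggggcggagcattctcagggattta

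Leaving out KO 1, KO 2, KO 4, CTR 2 and CTR 3 in turn lost the call of Man2b1 (log2 fold change 0.48 to 0.51, adjusted p 0.0540 to 0.0955). Those fits called 62 to 417 genes in all, against 520 with all libraries. Without CTR 4 and CTR 5 the log2 fold change of Man2b1 was 0.50 (adjusted p = 0.0197). Called genes differed from the rest in length, as recovered from the deposited FPKM and counts. The median length was 6425 bases for genes that rose, 2531 for genes that fell and 5554 for all genes tested, and Man2b1 had 12223. These lengths need not equal transcript lengths: that of Ctsa was 9533, against 4715 exon bases in GENCODE M21. After each library was corrected for a trend on gene length, the log2 fold change of Man2b1 was 0.42 (adjusted p = 0.0724), none of the 39 rose and 4 fell (Atp6v0d1, Atp6v1h, Atp6ap1 and Atp6v1d), with 2.17% of all genes tested higher and 2.92% lower. After correction for length and GC content together it was 0.36 (adjusted p = 0.113), none rose and 4 fell (Atp6v0d1, Atp6ap1, Ctsd and Cd63), with 1.76% of all genes tested higher and 2.65% lower.

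Hexa, the alpha subunit of the enzyme that degrades the ganglioside stored in Tay-Sachs disease, had the highest level per length of the glycosidases. It had 2381, 2294, 2343, 2417 and 2169 CPM in KO libraries 1 to 5, against 2133, 2002, 1990.0, 2176 and 1937 CPM in CTR libraries 1 to 5. The lowest KO library, KO 5, lay just under the highest CTR library, CTR 4, and the log2 fold change was 0.18 (SE 0.07, adjusted p = 0.165). DESeq2 and limma voom called Hexa higher in KO (adjusted p = 0.0353 and 0.0395). Gla, the alpha-galactosidase that is deficient in Fabry disease, had 314, 324, 361, 349 and 310.0 CPM in KO libraries 1 to 5, against 396, 371, 396, 358 and 396 CPM in CTR libraries 1 to 5. Only KO 3 among the KO libraries exceeded the lowest CTR library, CTR 4, and the log2 fold change of Gla was -0.21 (SE 0.08, adjusted p = 0.129), and limma voom called it lower (adjusted p = 0.0338). The other 4 glycosidases had log2 fold changes between -0.10 and 0.05: Neu1, the sialidase, -0.10; Gaa, which frees glucose from glycogen, -0.09; Gusb, the beta-glucuronidase, -0.03; and Glb1, the acid beta-galactosidase, 0.05. Their adjusted p-values ranged from 0.440 to 0.861.

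The 9 genes of cathepsins and legumain, the lysosomal proteases, held no call, and their median was -0.10. Ctsd (ENSMUSG00000007891), the aspartic protease, came nearest. It had 23477, 21793, 19765, 19694 and 22947 CPM in KO libraries 1 to 5, against 25301, 24296, 25113, 29729 and 27704 CPM in CTR libraries 1 to 5. Every KO library was below every CTR library, but the SD was 1757 CPM in KO and 2240 CPM in CTR, and the log2 fold change was -0.30 (SE 0.09, adjusted p = 0.0831). DESeq2 called Ctsd lower (adjusted p = 0.0200), as did limma voom (adjusted p = 0.0374). Of its 2351 exon bases in GENCODE M21, 808 are shared with Gm49369 on the same strand, which averaged 8.18 CPM. The Ctsd promoter stretch, chr7:142387808-142387927 (- strand) in GRCm38.p6 (RefSeq), is shown as that of the protease with the highest level per length (FPKM) here, with a CACGTG in capitals.
Ctsd: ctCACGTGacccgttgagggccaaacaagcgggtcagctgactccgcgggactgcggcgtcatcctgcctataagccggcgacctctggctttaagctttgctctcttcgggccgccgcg

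Ctsl, the cysteine protease with the largest negative estimate of the 39, had 3492, 4331, 5314, 5448 and 3666 CPM in KO libraries 1 to 5, against 7030.3, 4127, 5721, 8096 and 5203 CPM in CTR libraries 1 to 5. Relative to its mean its libraries varied more than those of Ctsd, CTR 2 lay under 3 of the KO libraries, and the log2 fold change of -0.44 had an SE of 0.18 (adjusted p = 0.188). Ctsb, an abundant cysteine protease, averaged 22984 ± 1216 CPM in KO and 25674 ± 1288 CPM in CTR. All 5 KO libraries lay under the CTR libraries, at a log2 fold change of -0.16 and an SE of 0.08 (adjusted p = 0.238). Ctss, which processes the invariant chain in antigen presentation, averaged 9056 ± 429 CPM in KO and 8382 ± 759 CPM in CTR (log2 fold change 0.11, SE 0.08, adjusted p = 0.468). The remaining proteases, Ctsh, Lgmn (legumain), Ctsa, Ctsz and Ctsc, had log2 fold changes between -0.11 and 0.14 and adjusted p-values of 0.500 to 0.983. Ctsa, which protects Neu1 and Glb1 from breakdown, shares 495 of 4715 exon bases with Pltp on the opposite strand, and Pltp rose in KO (adjusted p = 0.0362). The strand setting of the counting was not stated in the sources used here, so reads of the 2 genes cannot be told apart in that stretch.

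**Figure D3:**
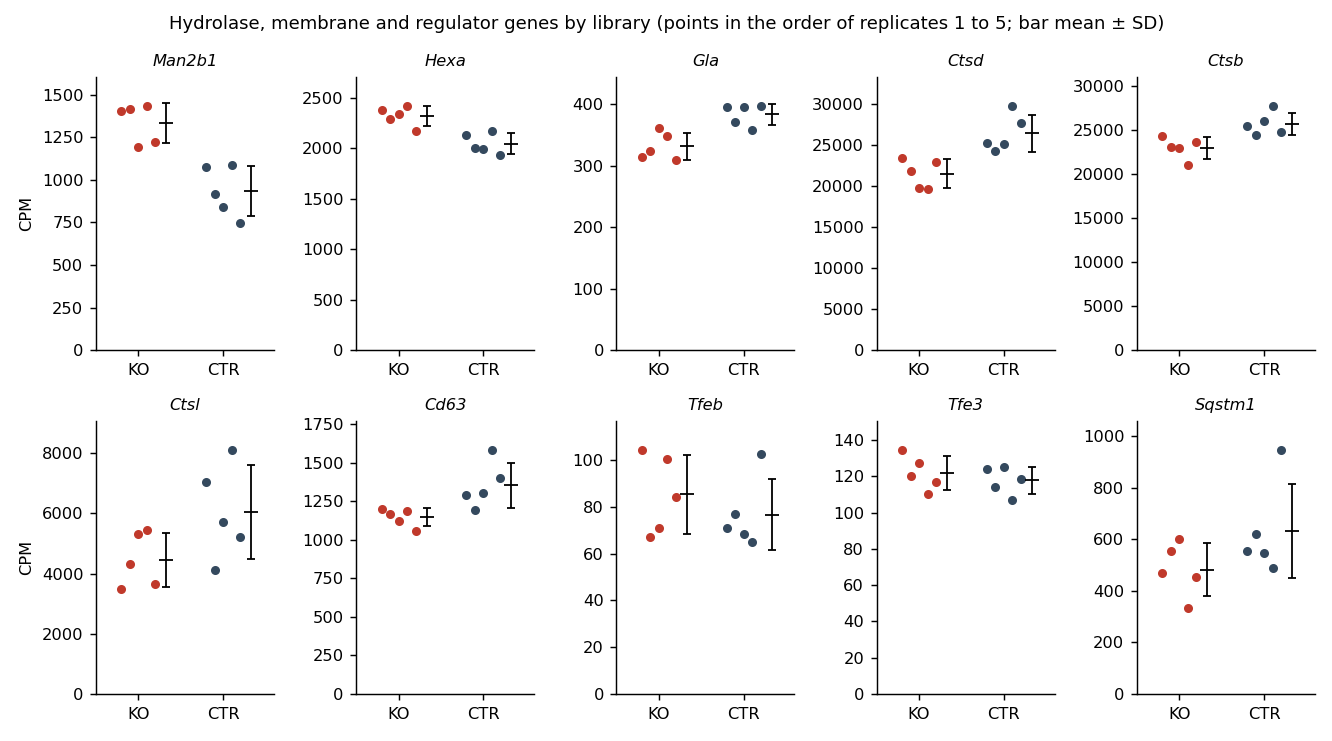
Level of 10 hydrolase, membrane and regulator genes in CPM (y axis from 0) in each KO library (red, left) and CTR library (blue, right), in the order of replicates 1 to 5, with mean ± SD. Man2b1 has every KO point above every CTR point, Ctsd and Ctsb have every KO point below, and in the other 7 genes the groups overlap.

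Among the other 6 hydrolases and cofactors the median log2 fold change was -0.06, and none passed the test. Psap encodes prosaposin, the precursor of the saposins that present glycolipids to their hydrolases, and had the highest level per length of the 39. It had 35808, 36051, 34882, 36697 and 37020.2 CPM in KO libraries 1 to 5, against 36020.1, 36714, 36328, 42527 and 32377 CPM in CTR libraries 1 to 5. CTR 4 was the highest and CTR 5 the lowest of the 10 libraries, with the KO libraries between them, and the log2 fold change was -0.03 (95% interval -0.21 to 0.15). Ppt1, the palmitoyl thioesterase lost in an infantile neuronal ceroid lipofuscinosis, had 121, 104, 112, 119.8 and 125 CPM in KO libraries 1 to 5, against 129.6, 129, 136, 136 and 123 CPM in CTR libraries 1 to 5. Only KO 5 reached above the lowest CTR library, CTR 5, and the log2 fold change of Ppt1 was -0.17 (SE 0.08, adjusted p = 0.225). Arsb, the sulfatase of dermatan and chondroitin sulfate, had 56.4, 58.2, 55.8, 61.4 and 63.3 CPM in KO libraries 1 to 5, against 57.2, 54.3, 55.6, 52.5 and 43.7 CPM in CTR libraries 1 to 5. CTR 5 was the lowest library, and the log2 fold change was 0.16 (SE 0.09, adjusted p = 0.313). Asah1 (acid ceramidase), Tpp1 (a tripeptidyl peptidase) and Grn (progranulin, a lysosomal cofactor) had log2 fold changes of -0.13, -0.09 and -0.04.

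The 4 membrane protein genes all had negative estimates, with a median of -0.13, and none passed the test. Cd63, a tetraspanin of late endosomes and lysosomes, had 1201, 1166, 1121, 1189 and 1058 CPM in KO libraries 1 to 5, against 1288, 1194, 1306, 1581 and 1402 CPM in CTR libraries 1 to 5. KO 1 alone exceeded the lowest CTR library, CTR 2, and the log2 fold change of Cd63 was -0.24 (SE 0.09, adjusted p = 0.135). Gpnmb, a glycoprotein that marks lipid-laden macrophages and follows MiT family factors, had 25481, 23509.8, 26504, 26633 and 27855 CPM in KO libraries 1 to 5, against 29007, 29579, 31356, 29832 and 25031 CPM in CTR libraries 1 to 5. The groups overlapped only through CTR 5, the lowest CTR library, and the log2 fold change was -0.16 (SE 0.09, adjusted p = 0.311). Lamp1 and Lamp2, the main glycoproteins of the lysosomal membrane, averaged 4107 ± 112 CPM in KO and 4405 ± 287 CPM in CTR for Lamp1 and 775 ± 39.1 CPM in KO and 813 ± 94.7 CPM in CTR for Lamp2, with log2 fold changes of -0.10 (95% interval -0.26 to 0.06) and -0.07 (95% interval -0.27 to 0.13). The Lamp1 promoter stretch, chr8:13159061-13159180 (+ strand) in GRCm38.p6 (RefSeq), is shown because it holds more CACGTG words, in capitals, than that of any of the other genes searched among the 39.
Lamp1: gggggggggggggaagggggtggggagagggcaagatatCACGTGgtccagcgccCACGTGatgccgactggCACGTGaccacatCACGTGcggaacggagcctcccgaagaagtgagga

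The regulators did not pass the test. Tfeb had 104, 66.9, 70.8, 100.5 and 84.3 CPM in KO libraries 1 to 5, against 70.8, 76.8, 68.2, 64.9 and 103 CPM in CTR libraries 1 to 5. KO 1 and KO 4 were high among the KO libraries and CTR 5 was high among the CTR libraries, and the log2 fold change of 0.15 had an SE of 0.16 (adjusted p = 0.596). Tfe3 had 134, 120.3, 127, 110.3 and 117 CPM in KO libraries 1 to 5, against 124, 114, 125, 107 and 118 CPM in CTR libraries 1 to 5. Its libraries were interleaved, with a log2 fold change of 0.05 (95% interval -0.13 to 0.23). Sqstm1, which encodes the autophagy receptor p62 and is itself induced by TFEB, had 470.5, 556, 599.8, 335 and 453 CPM in KO libraries 1 to 5, against 556, 623, 546, 491 and 946 CPM in CTR libraries 1 to 5. CTR 5 was the highest library and KO 4 the lowest, and the log2 fold change of -0.39 had an SE of 0.19 (adjusted p = 0.254). These are transcript levels, and where the TFEB protein was in the cell was not measured.

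The E-box that TFEB and TFE3 bind was searched for in the promoters of these genes. RefSeq promoter windows, 250 bases before to 50 after the start, were matched for 32 of the 39 genes. CACGTG, which reads the same on both strands, was in the windows of 10 of the 32 (31.2%), against 8.09% of all 27025 genes with a window and 12.0% of the 9374 tested genes with one. TCACGTG, searched on both strands and always part of a CACGTG, was in 9 of the 32 (28.1%), against 4.29% and 7.07%. The 10 were Atp6v0d1, Atp6v1a, Ctsa, Ctsd, Ctsl, Gaa, Gla, Glb1, Lamp1 and Lgmn. Lamp1 held 4, all in the stretch shown, and Ctsd held 2, of which 1 is in the stretch shown. The median log2 fold change of the 10 was -0.10, and that of the 22 without CACGTG was -0.09. Atp6v0d1 was the 1 gene called among the 10, and Man2b1, Atp6v1d and Atp6ap1 were the 3 called among the 22. A match is a description of the sequence, and binding was not measured.

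Levels per length were highest for Psap, at 9157 ± 189.9 FPKM in KO and 9067 ± 498 FPKM in CTR (SD, n = 5 each). They were lowest for Tfe3, at 5.97 ± 0.468 FPKM in KO and 5.63 ± 0.556 FPKM in CTR. The order of genes rests on the 1 length per gene behind the FPKM, 20656 bases for Tfe3. That length could exceed the exon bases of GENCODE M21, at 9533 against 4715 for Ctsa, or equal them, at 1441 for Ctsz. How far the order would change with other lengths was not tested. FPKM are scaled to each library's total count and not by TMM, so small differences between genotypes can have another sign than in CPM, as for Psap. After Psap came Ctsd with 6045 ± 495 FPKM in KO and 7214 ± 446 FPKM in CTR, Ctss with 5100.0 ± 230.1 FPKM in KO and 4591 ± 330.5 FPKM in CTR, Ctsb with 3665 ± 200.3 FPKM in KO and 3983 ± 79.3 FPKM in CTR and Gpnmb with 3521 ± 216 FPKM in KO and 3819 ± 301 FPKM in CTR. Ctsb and Gpnmb differed by less than the SD of Gpnmb in each genotype, but in CTR by more than the SD of Ctsb. Within the pump, Atp6v0d2 was highest per length with 431 ± 20.4 FPKM in KO and 458 ± 77.6 FPKM in CTR, followed by Atp6v0c and Atp6v1b2, and Atp6v1h was lowest with 14.2 ± 1.43 FPKM in KO and 16.8 ± 1.35 FPKM in CTR. Together the 39 genes held 15.2 ± 0.254% of all counts in KO and 16.1 ± 0.293% in CTR, with a KO range of 14.9 to 15.5% and a CTR range of 15.8 to 16.4%. Hydrolases and cofactors held 11.3 ± 0.184% in KO and 11.8 ± 0.313% in CTR, and the pump held 0.634 ± 0.0334% in KO and 0.675 ± 0.0385% in CTR. In both of these shares the genotypes overlapped. Hydrolases and cofactors ranged from 11.1 to 11.5% in KO and 11.4 to 12.2% in CTR, and the pump from 0.600 to 0.681% in KO and 0.611 to 0.709% in CTR.

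**Figure D4:**
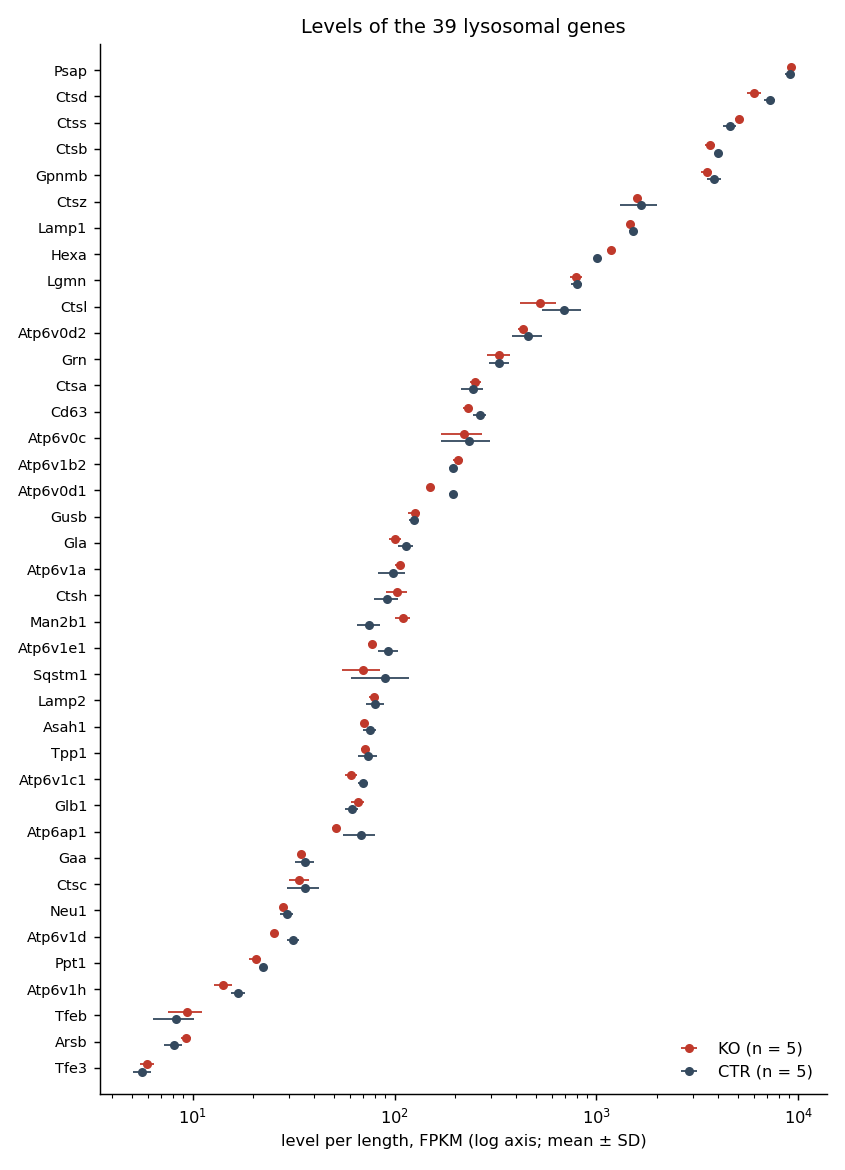
Level per length of the 39 lysosomal genes in FPKM (log x axis), mean ± SD of KO (red) and CTR (blue), 5 libraries each, ordered by mean. Psap is highest and Tfe3 lowest, Man2b1 lies to the right in KO at 110.4 FPKM against 75.1 FPKM in CTR, and Atp6v0d1 lies to the left in KO at 151 FPKM against 194 FPKM in CTR.

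The rest of the pathway was examined through 7 further gene lists. In the main edgeR test 1.83% of all genes tested rose and 2.11% fell. Of 40 other lysosomal hydrolases 39 were tested and none rose, with a median log2 fold change of 0.05. Among those that fell was Dpp7, a dipeptidyl peptidase, at 84.7 ± 11.5 CPM in KO and 124 ± 18.3 CPM in CTR (log2 fold change -0.55, SE 0.12, adjusted p = 0.0333). Other settings called other numbers of the 39: DESeq2 called 3 higher and 3 lower, and limma voom 3 higher and 5 lower. Scaling by library totals called 1 higher and none lower. Over all 13203 genes tested it called 312 higher and 213 lower, with a median log2 fold change of 0.03. The 1 higher of the 39 was Naaa, an acid amidase (log2 fold change 0.41, adjusted p = 0.0384, against 0.37 and 0.0791 with TMM), chosen for mention after its values were seen. Of 23 other V-ATPase subunits and assembly factors 16 were tested, none rose and 1 fell, with a median of -0.09: Atp6v0e, a small subunit of V0, at 343 ± 28.2 CPM in KO and 447 ± 48.7 CPM in CTR (log2 fold change -0.38, SE 0.09, adjusted p = 0.0442). None of 16 genes of lysosomal enzyme sorting (median 0.04) and none of 27 autophagy genes (median -0.02) passed the test in edgeR, where 1 and 4 were higher and 3 and 5 lower at an unadjusted p under 0.05, in that order of lists. Of all genes tested, 10.0% were higher and 11.9% lower at that unadjusted p. DESeq2 called 1 sorting gene and 2 autophagy genes, and limma voom called 2 and 5. Over all genes tested, DESeq2 called 4.54% higher and 5.23% lower, and limma voom 7.77% higher and 6.76% lower.

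Of 25 other membrane proteins and cofactors 24 were tested, 1 rose and none fell, with a median of -0.04: Mfsd12, a transporter that brings cysteine into lysosomes and melanosomes, at 1061 ± 76.8 CPM in KO and 829 ± 70.0 CPM in CTR (log2 fold change 0.35, SE 0.09, adjusted p = 0.0412). Over all genes tested, edgeR called 1.83% higher and 2.11% lower. Of 10 protease inhibitors 4 were tested, none rose and 2 fell, with a median of -0.34. Cstb, the cytosolic inhibitor of cathepsins such as those encoded by Ctsb and Ctsl, averaged 601 ± 47.3 CPM in KO and 878 ± 149 CPM in CTR (log2 fold change -0.55, SE 0.12, adjusted p = 0.0258). Serpinb1a, which chiefly inhibits serine proteases of neutrophils, averaged 4.23 ± 0.942 CPM in KO and 13.6 ± 7.65 CPM in CTR (log2 fold change -1.68, SE 0.35, adjusted p = 0.0246), beside neutrophil markers that summed to 120 to 145 CPM in KO and 79.9 to 129 CPM in CTR, with S100a8 lower in KO and Ngp at 0, whose part in this was not tested. Of 19 MiT factors and nutrient sensors 18 were tested, 1 rose and 1 fell, with a median of -0.07: Rptor, the mTORC1 subunit that binds substrates, at 65.8 ± 5.98 CPM in KO and 47.9 ± 7.05 CPM in CTR (log2 fold change 0.46, SE 0.11, adjusted p = 0.0443), and Rraga, a GTPase that recruits mTORC1 to lysosomes, at 67.4 ± 5.58 CPM in KO and 84.3 ± 3.08 CPM in CTR (log2 fold change -0.32, SE 0.08, adjusted p = 0.0462).

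The 7 genes named from these lists also stood close to the threshold when 1 library was left out. The ranges given are over the 10 fits that each leave out 1. Those fits called 62 to 868 genes in all, against 520 with all libraries. The call of Dpp7 was lost without KO 1, KO 2, KO 4, CTR 2, CTR 3 and CTR 5 in turn (log2 fold change -0.60 to -0.46 and adjusted p 0.0204 to 0.0991). Leaving out KO 1, KO 2, KO 3, KO 4, CTR 1, CTR 2 or CTR 3 lost the calls of both Atp6v0e (log2 fold change -0.42 to -0.32 and adjusted p 0.0363 to 0.126) and Mfsd12 (log2 fold change 0.31 to 0.39 and adjusted p 0.0349 to 0.123). Those of Cstb (log2 fold change -0.60 to -0.48 and adjusted p 0.0239 to 0.0762) and Serpinb1a (log2 fold change -1.86 to -1.32 and adjusted p 0.0154 to 0.0703) were each lost without KO 1, KO 2, KO 4 and CTR 3 in turn. Rptor kept its call only without CTR 1 (adjusted p = 0.0447), with a log2 fold change of 0.39 to 0.51 and adjusted p up to 0.126. Rraga kept its call only without KO 3 and CTR 4 in turn (log2 fold change -0.37 to -0.29 and adjusted p 0.0312 to 0.121). Without CTR 4 and CTR 5 together all 7 were called, with log2 fold changes of -0.49 for Dpp7, -0.36 for Atp6v0e, 0.33 for Mfsd12, -0.36 for Cstb, -1.14 for Serpinb1a, 0.32 for Rptor and -0.32 for Rraga (adjusted p 0.0193 to 0.0479). With no filter on low counts, Cstb and Serpinb1a alone of the 7 were called, and with the block on the replicate number none was. The length and GC trend lost Atp6v0e, Mfsd12, Rptor and Rraga, the length trend lost Rptor and Rraga, and scaling by library totals lost Dpp7 and Rraga.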

How the data were processed

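Bulk RNA sequencing covered 10 libraries of cultured peritoneal macrophages, 5 KO and 5 CTR. The deposited table gives raw counts per Ensembl gene and FPKM by the authors. Per the submitters' processing notes, GRCm39 was the build and the tools included edgeR, HISAT2, SAMtools 1.3.1 and CASAVA 1.8. Their roles, the counter, the annotation and the strand setting were not stated in the sources used here. The deposited FPKM equal the count over 1 length per gene and the library's total, within 9.65e-06 for genes with at least 50 counts, and served for levels and lengths. Of 53465 genes, 53274 were matched to a symbol.

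The counts were tested with edgeR 4.0.16 under R 4.3.3. Genes were kept by filterByExpr, which left 13203 with 99.9% of the counts, scaled by TMM, and compared by a two-sided quasi-likelihood test on genotype alone, with Benjamini-Hochberg adjustment over all genes tested (threshold 0.05). The biological coefficient of variation common to all genes tested was 0.200. SE was taken from the fold change and its F statistic. Totals of 15664243 to 19235777 counts set the depth, and limits on a count of 0 cover counting error only, since no molecular identifiers mark independent molecules. Gnas and the d2 to d1 ratio were compared by exact permutation. Other settings were DESeq2 1.42.0, limma 3.58.1 voom, other scalings and filters, a robust fit, a block on the replicate number, offsets for length and GC trends (mgcv 1.9.3) and libraries left out. The test was checked on simulated data. Exon overlaps and GC content came from GENCODE M21 and promoters from RefSeq, both on GRCm38, and no genome of the authors' build was used.

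The genes and lists were chosen with earlier results of these data known. Values in every library are given for genes with an adjusted p under 0.05, the 2 lowest p-values and the highest mean FPKM of each list, and Tfeb, Tfe3, Gpnmb, Atp6v0d1 and Atp6v0d2 whatever their result. From other lists, genes with an adjusted p under 0.05 are named, up to 3 per list, and some results that this rule takes are not reported here. Atp6v0c was shown by library after its values were seen. Libraries with the same replicate number did not deviate together, with correlations of -0.126 to 0.0582 across genes, so they were not paired.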

Additional observations from a re-analysis of the deposited data

Results flagged for a closer look

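Of 82 groups of 5 libraries examined, 4 held a library far from the other 4 in relation to the group's range. Chance alone flags about 1 in 20 groups, or 4.1 of 82. Each of the 4 was a CTR library. Ctsa, the carboxypeptidase that protects Neu1 and Glb1, stood at 3123 CPM in CTR 4, where the other CTR libraries reached 2252 CPM. Ctsz stood at 3195 CPM in CTR 5, where the others reached 2391 CPM. Sqstm1 stood at 946 CPM in CTR 5, where the others reached 623 CPM. Atp6v1b2 stood at 1191 CPM in CTR 5, below the others, of which the lowest was 1310.1 CPM. CTR 4 and CTR 5 are the libraries farthest out on the CTR side of the first principal component.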

How the results depend on the processing

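Under 21 other settings, the 840 fold changes of the 39 genes and Gnas kept direction and side of the threshold in 762 cases, lost a call in 32, gained a call in 16 and changed sign in 30, none of these among called values. The calls of the 4 genes were kept in 5 of 10 settings that leave out 1 library for Man2b1, 8 of 10 for Atp6v0d1, 3 of 10 for Atp6v1d and 2 of 10 for Atp6ap1. In the 11 further settings they were kept in 8, 10, 8 and 8, in that order of genes. With no filter on low counts, 0 hydrolases, 1 pump gene and 261 genes in all were called. DESeq2 called 3, 6 and 1289, voom 4, 6 and 1919, and the fit without CTR 4 and CTR 5 called 1, 5 and 1185. The length trend left 0 hydrolases. Leaving out 1 library gave 0 to 1 hydrolases, 0 to 3 pump genes and 62 to 868 genes in all, against 1, 3 and 520 with all libraries. The log2 difference of the d2 to d1 ratio was 0.24 to 0.39 with 1 library left out and 0.14 without CTR 4 and CTR 5. The cause of these shifts was not tested. A block on the replicate number (replicate block) called 0 pump genes, 1 hydrolase and 104 genes in all, where no library deviated most like the one of its own number.

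Estimates near 0 changed sign. Ctsa was 9.6e-05 with DESeq2 size factors, 0.040 with library totals, 0.0011 with the CPM filter, 0.00010 in DESeq2, 0.10 in voom, 0.0079 with the block, and 0.13 without CTR 4 and CTR 5. In voom and without CTR 4 and CTR 5, Ctsz was 0.0069 and 0.062, Lgmn 0.0045 and 0.012, Atp6v0c 0.016 and 0.0092, and Atp6v1a -0.013 and -0.041. With library totals, Gusb was 0.010 and Psap 0.014. With the length and GC trend, Tfeb was -0.086, Tfe3 -0.15 and Atp6v0d2 0.0033, and with the length trend Tfe3 was -0.11. Leaving out 1 library gave -0.045 to 0.11 for Ctsa, -0.15 to 0.025 for Ctsz, -0.10 to 0.015 for Grn, -0.053 to 0.012 for Gusb and -0.069 to 0.030 for Psap. In the main fit the SE was 0.11 for Ctsa and Ctsz, 0.10 for Grn and 0.08 for Gusb and Psap, so fold changes near 0 were not resolved. Each of the 39 genes had at least 701 counts in every library, and what limits the resolution was not tested.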

Other observations

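Reads of genes with near-identical copies may be split between them. Cd63-ps, a processed copy of Cd63, had 406, 312, 388, 2.14 and 405 CPM in KO libraries 1 to 5, against 489, 507, 519.6, 702 and 509 CPM in CTR libraries 1 to 5. KO 4 held 38 counts of it, while Cd63 itself had 1189 CPM in KO 4 and 1058 to 1201 CPM in the KO libraries. Cd63 and Cd63-ps together averaged 1449.7 ± 155 CPM in KO and 1899 ± 228 CPM in CTR (SD, n = 5 each). Atp6v0c-ps2, a processed copy of Atp6v0c, had 402 to 422 CPM in KO and 424 to 528.5 CPM in CTR, and in KO it did not follow the lower and higher sets of Atp6v0c libraries. Together the 2 averaged 1402 ± 225 CPM in KO and 1546 ± 297 CPM in CTR. How the authors' counting treated reads that match both copies was not stated in the sources used here.

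The E-box share among other lysosomal genes was 7 of 30 for CACGTG in the promoter windows of the other hydrolases (23.3%) and 4 of 18 in those of the other V-ATPase subunits and assembly factors (22.2%).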
